A study of Homo sapiens with 6 samples.

Results

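The transcripts described here are those of 10 genes that encode the mitochondrial machinery of long- and medium-chain fatty acid oxidation: CPT1A, CPT2, SLC25A20, ACADVL, ACADM, HADHA, HADHB, HADH, ETFDH and ACAA2. They were chosen by gene symbol for their role in the pathway, with earlier results of these data known, and all 10 were found among the 14136 gene entries of the table. The 6 RNA-seq libraries came from Cal33, a cell line established from a human squamous carcinoma of the mouth. Cells carrying pSin-EF2 with FLAG-tagged CES2 (CES2, n = 3) were compared with cells carrying the empty pSin-EF2 vector (Vector, n = 3). Both groups were infected with lentivirus packaged in 293FT cells and selected with puromycin at 0.5 ug/ml, and both were grown in serum-containing medium. Whether the 3 libraries within a group were separate infections or cultures is not stated, so each p-value reflects variation among these libraries alone, part of which may be technical.

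Long-chain fatty acids enter mitochondria as carnitine esters. CPT1A on the outer membrane attaches carnitine, the carrier encoded by SLC25A20 moves the acylcarnitine across the inner membrane, and CPT2 on the matrix side restores the acyl-CoA. Each round of the spiral then shortens the chain in a sequence of dehydrogenation, hydration, a second dehydrogenation and thiolysis. ACADVL and ACADM encode the very-long-chain and medium-chain acyl-CoA dehydrogenases, and HADHA and HADHB the alpha and beta subunits of the trifunctional protein, which carries out the remaining steps on long chains. HADH and ACAA2 encode the short-chain 3-hydroxyacyl-CoA dehydrogenase and a medium-chain thiolase of the matrix, and ETFDH the oxidoreductase that passes electrons from the acyl-CoA dehydrogenases to ubiquinone. CES2 encodes carboxylesterase 2, a hydrolase resident in the endoplasmic reticulum, whose ester substrates include drugs and acylglycerols, so that it can release fatty acids. The comparison asks whether the transcripts of the oxidation machinery differed where CES2 was raised.

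HADHA and HADHB lie head to head on chromosome 2, and their RefSeq starts (GRCh38.p14) are 307 bases apart on opposite strands. The windows from 250 bases before to 50 bases after each start therefore share 194 bases, from 26244689 to 26244882. These windows are printed because they show the stretch of DNA that the RefSeq starts of both subunits of a single complex share. The HADHB transcript listed in the data table starts further upstream, at 26243170, inside the span of the listed HADHA transcript on the other strand (26190635 to 26244726), so that the spans of the listed transcripts overlap. The shared bases are in capitals, and each window is read 5′ to 3′ on the strand of its own gene, so that the capitals of one are the reverse complement of the capitals of the other.
HADHB (chr2:26244689-26244988, plus strand): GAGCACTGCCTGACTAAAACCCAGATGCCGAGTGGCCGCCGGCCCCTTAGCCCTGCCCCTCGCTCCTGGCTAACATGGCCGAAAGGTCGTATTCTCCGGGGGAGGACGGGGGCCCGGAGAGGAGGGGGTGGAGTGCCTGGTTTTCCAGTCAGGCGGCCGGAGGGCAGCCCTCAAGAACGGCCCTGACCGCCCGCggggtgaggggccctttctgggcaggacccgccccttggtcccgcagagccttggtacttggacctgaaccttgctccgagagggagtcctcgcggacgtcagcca
HADHA (chr2:26244583-26244882, minus strand): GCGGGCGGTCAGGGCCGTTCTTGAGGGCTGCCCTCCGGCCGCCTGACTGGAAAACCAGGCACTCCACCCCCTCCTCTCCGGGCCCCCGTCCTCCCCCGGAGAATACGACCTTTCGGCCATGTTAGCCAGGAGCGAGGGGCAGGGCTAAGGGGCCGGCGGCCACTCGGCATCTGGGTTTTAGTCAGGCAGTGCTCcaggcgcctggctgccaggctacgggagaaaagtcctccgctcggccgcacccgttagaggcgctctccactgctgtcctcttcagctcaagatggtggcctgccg

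Promoter windows of the same kind were found in the RefSeq table for 9 of the 10 genes, in 11 windows, with more than 1 window for HADH and for ACADVL. The GC box GGGCGG, searched on both strands, was present in 7 of these 11 windows and in 45% of the 35116 windows of all genes. The only match in the HADHA window lies in the bases shared with HADHB, so the same site counts in both windows. The nuclear receptor motif AGGTCA was present in 0 of the 11, against 13.8% of all windows. It is the unit of the repeated site to which PPAR and RXR bind as a dimer. These are matches of letters within a short window and say nothing of more distant sites. The windows follow RefSeq starts, which can differ from the starts of the listed transcripts. The transcript listed for CPT1A starts 28774 bases downstream of its RefSeq start. Those listed for HADH and ACADVL start at or near the RefSeq start of a window and far from that of the other.

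Abundance was given as TPM, a measure per transcript length that is scaled to the same total in every library. Sequencing depth cannot be recovered from it, and the values therefore carry no counting interval. CES2 was at 2664, 1929 and 2294 TPM in CES2 libraries, against 45.6, 41.9 and 44.9 TPM in Vector libraries (limma, adjusted p = 7.38e-06). Pearson correlations of log2(TPM + 1) were 0.932 to 0.974 within groups and 0.927 to 0.978 between groups. Of the squamous epithelial markers, KRT5 and KRT17 averaged 1608 and 1759 TPM in CES2 libraries and 2020 and 1427 TPM in Vector libraries, while the basal keratin KRT14 averaged 1.98 TPM in both. Of 6 fibroblast markers, COL1A1 was the only one with an entry, and it was tested. It was at 3.89 to 10.5 TPM in CES2 and at 4.49 to 9.36 TPM in Vector. Of 5 leukocyte markers, 2 had entries, CD14 and CSF1R. Neither reached 1 TPM in any library, and neither was tested. CD14 was at 0.291 to 0.543 TPM in CES2 and at 0.397 to 0.695 TPM in Vector. CSF1R was at 0.019 to 0.155 TPM in CES2 and at 0.095 to 0.235 TPM in Vector. The groups overlapped for each of these genes. In bulk samples such as these, fewer cells of a type and less RNA per cell cannot be told apart.

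No member of the pathway differed between CES2 and Vector cells by the test. Of the 10 genes, 9 passed the filter on low values (at least 1 TPM in at least 3 libraries) and were tested among 12210 genes by limma on log2(TPM + 1). None of these 9 passed an adjusted p of 0.05, and 0 had an unadjusted p under 0.05. Over all genes tested, 0.00819% passed the adjusted threshold, which was CES2 alone, and 1.09% had an unadjusted p under 0.05. The smallest unadjusted p among the members was 0.218, for HADH, and the adjusted p of each was 0.9998. In all 10 genes the values of the CES2 and Vector libraries overlapped, while groups did not overlap for 3.7% of the genes tested.

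The genes of the carnitine shuttle differed in level. Among all genes tested, the mean TPM of CPT1A lay at percentile 76.3, that of CPT2 at 65.3 and that of SLC25A20 at 20.5. CPT1A, the step at which malonyl-CoA restrains entry, was at 60.3, 70.9 and 71.1 TPM in CES2 libraries and at 69.8, 63.1 and 78.9 TPM in Vector libraries. The groups were interleaved, with a CES2 library lowest and a Vector library highest. Its log2 fold change by limma was -0.064 (standard error 0.18, 95% interval -0.48 to 0.35). CPT2 was at 45.2, 40.6 and 45.4 TPM in CES2 and at 40.5, 42.4 and 61.5 TPM in Vector. A single library, Vector 3, stood above the other 5, which lay within a narrow band. The log2 fold change of CPT2 was -0.11 (95% interval -0.60 to 0.38), and without Vector 3 it was 0.075. SLC25A20, the carnitine-acylcarnitine carrier, was at 8.62, 11.0 and 5.95 TPM in CES2 and at 8.14, 7.24 and 10.6 TPM in Vector. Both its lowest and its highest value were in CES2 libraries, on either side of all 3 Vector values. Its log2 fold change was -0.039 (95% interval -0.68 to 0.60), and its sign turned with the scaling, to 0.019 after median rescaling and 0.060 after quantile normalization.

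Relative to each other, the deposited TPM of CPT1A exceeded that of CPT2 in every library. This order carries the length used for each gene: the transcript listed for CPT1A has 2496 bases, against 5232 for the principal one in GENCODE release 29, while that listed for CPT2 is the principal one, of 3094 bases. Which length the TPM of CPT1A rests on is not given in the sources used here, so which of the 2 genes was more abundant cannot be settled. The ratio of CPT1A to CPT2 was 1.33, 1.75 and 1.56 in CES2 and 1.73, 1.49 and 1.28 in Vector, so that the groups covered nearly the same range. A ratio within a library does not depend on the scaling to a common total. The mean log2 ratio was 0.62 ± 0.20 in CES2 and 0.57 ± 0.21 in Vector (SD, n = 3 each), a difference of 0.049 (two-sided exact permutation test, p = 0.7). With 3 libraries against 3 the smallest p that this test allows is 0.1. Among the other forms of the enzyme, CPT1B, the muscle form, which was named after its values were seen, averaged 26.1 ± 9.98 TPM in CES2 and 28.0 ± 9.54 TPM in Vector (SD, n = 3 each).

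**Figure D1:**
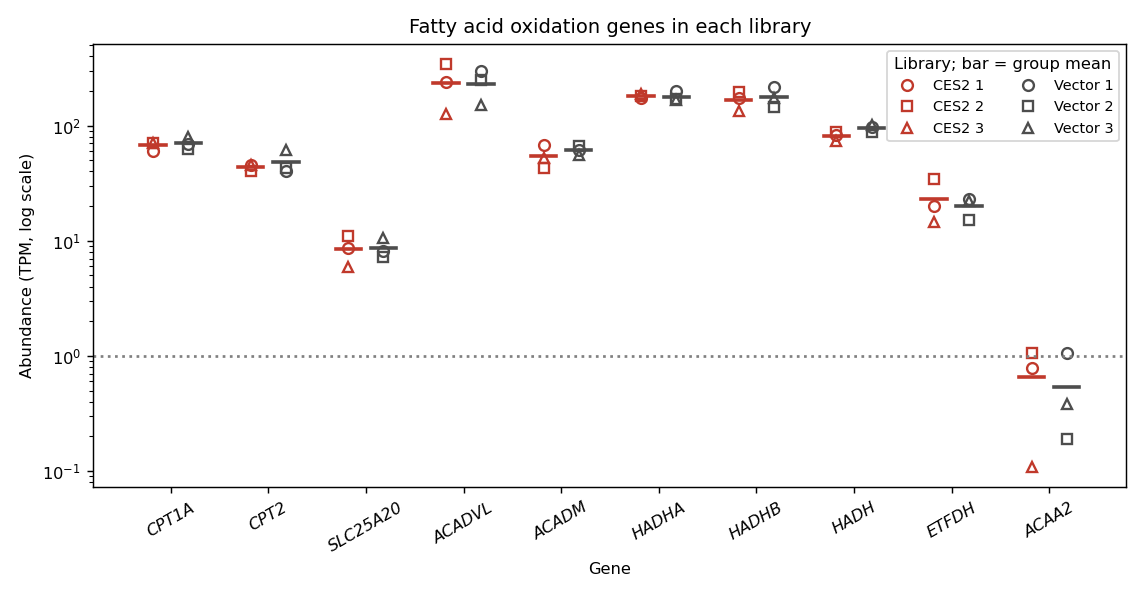
TPM of the 10 genes on a log axis, with CES2 libraries in red on the left and Vector libraries in grey on the right of each gene, symbols for the library and bars for the group means. Groups overlap in all 10 genes, ACADVL spreads most widely among the 9 tested genes (126 to 341 TPM), and ACAA2 lies near or below the dotted line at 1 TPM.

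The acyl-CoA dehydrogenases, which open each round of the spiral, differed from each other in level and in spread. ACADVL had the highest mean of the 10 genes and the widest spread of the 9 tested. It was at 237, 341 and 126 TPM in CES2 libraries and at 296, 248 and 151 TPM in Vector libraries. The highest of the 6 values was 2.70 times the lowest, against a median of 1.79 times over all genes tested, while the group means were 235 ± 107 TPM in CES2 and 232 ± 73.9 TPM in Vector (SD, n = 3 each). The residual standard deviation of ACADVL, 0.62 on the log2 scale, lay at percentile 89.5 of all genes tested. Its log2 fold change was -0.037 (95% interval -0.92 to 0.84), and this ran between -0.36 without CES2 2 and 0.35 without CES2 3. The sign also turned under median rescaling (0.026). ACADM was at 67.6, 42.8 and 52.3 TPM in CES2 and at 61.4, 65.9 and 56.0 TPM in Vector. Its lowest values were those of CES2 2 and CES2 3, but CES2 1 was the highest of all 6. For ACADM the log2 fold change was -0.19 (standard error 0.21, 95% interval -0.68 to 0.30), which was -0.035 without CES2 2 and -0.36 without CES2 1. Where ACADVL was highest, in CES2 2, ACADM was at its lowest.

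The deposited TPM values of HADHA and HADHB were of similar size in both groups, with the doubt about length given below. HADHA was at 172, 180 and 187 TPM in CES2 and at 200, 169 and 166 TPM in Vector. All 3 CES2 values fell inside the range of the Vector values. Its residual standard deviation, 0.11 on the log2 scale, was at percentile 4.43 of all genes tested, the lowest among the members. The log2 fold change was 0.016 (95% interval -0.36 to 0.40), equivalent to between 0.778-fold and 1.32-fold. HADHB was at 175, 194 and 134 TPM in CES2 and at 216, 144 and 172 TPM in Vector. Vector 1 was highest for this gene, as it was for HADHA, and CES2 3 was lowest. Its log2 fold change was -0.081 (95% interval -0.59 to 0.43).

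The ratio of HADHA to HADHB was 0.984, 0.930 and 1.40 in CES2 and 0.926, 1.17 and 0.965 in Vector. CES2 3 stood apart from the other 5 libraries, because there HADHA was at its second highest value and HADHB at its lowest. The difference of the mean log2 ratio was 0.098 (two-sided exact permutation test, p = 0.6), and without CES2 3 it was -0.084. Group means of the log2 ratio were 0.12 ± 0.32 in CES2 and 0.020 ± 0.18 in Vector (SD, n = 3 each). The level of HADHB relative to HADHA carries the length used for each gene. The transcript listed for HADHB has 557 bases and is incomplete in GENCODE release 29, in which the longest coding transcript of the gene has 2142 bases. Whether the deposited TPM rests on the listed length is not given in the sources used here.

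**Figure D2:**
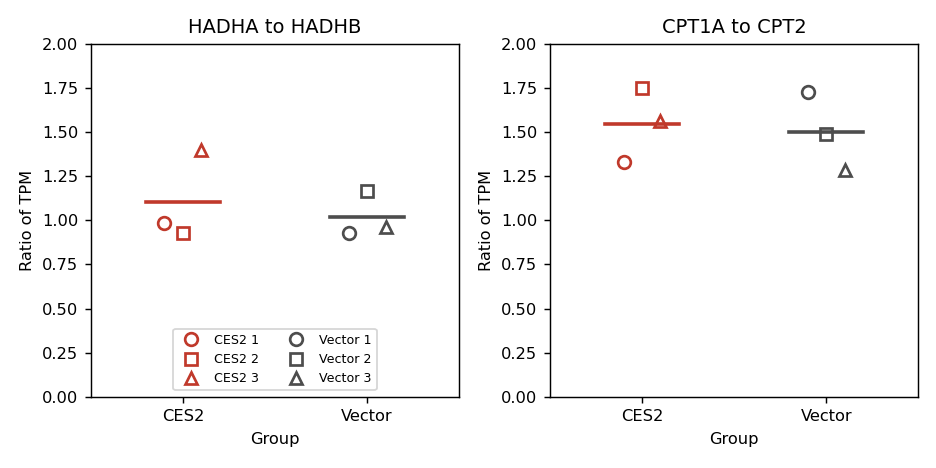
Ratio of TPM of HADHA to HADHB and of CPT1A to CPT2 in each library, CES2 in red on the left and Vector in grey on the right, with bars at the group means. The HADHA to HADHB ratio was 0.926 to 1.17 in 5 libraries and 1.40 in CES2 3, and for CPT1A to CPT2 the groups cover nearly the same range.

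The enzymes of the later steps held the smallest p and the lowest level. HADH was at 82.9, 87.5 and 73.1 TPM in CES2 and at 97.2, 87.3 and 101 TPM in Vector. Here the groups touched at a single point, with CES2 2 just above Vector 2. The means were 81.1 ± 7.38 TPM in CES2 and 95.2 ± 7.06 TPM in Vector (SD, n = 3 each), giving a log2 fold change of -0.23 (standard error 0.17, 95% interval -0.62 to 0.16, limma, unadjusted p = 0.218, adjusted p = 0.9998). An exact permutation test, two-sided, on the same values returned p = 0.2. The sign of HADH was the same under every alternative run, with values from -0.29 without Vector 2 to -0.16 without CES2 3, but it passed the threshold under none of them.

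ACAA2 was the only member below the filter. Its values were 0.792, 1.05 and 0.108 TPM in CES2 and 1.05, 0.189 and 0.384 TPM in Vector, so that it reached 1 TPM in 2 libraries, one of each group. With no filter its log2 fold change was 0.091, and this ran from -0.090 without CES2 2 to 0.35 without CES2 3. Over all 14136 entries its mean lay at percentile 10.6. Other thiolases of fatty acid and ketone metabolism were far more abundant: ACAA1, the peroxisomal thiolase, averaged 64.3 TPM in CES2 and 61.2 TPM in Vector, and ACAT1, the mitochondrial acetoacetyl-CoA thiolase, named after its values were seen, 114 TPM in CES2 and 125 TPM in Vector. The transcript listed for ACAA2, of 3350 bases, is the principal one in GENCODE release 29 and shares 385 exon bases with another annotated gene on the same strand, AC090227.1. Reads in that stretch could be assigned to either gene, and that gene was not analysed here.

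Electron transfer completed the set. ETFDH was at 20.1, 34.3 and 14.6 TPM in CES2 and at 23.1, 15.2 and 22.3 TPM in Vector. As for SLC25A20, the lowest and highest of the 6 values were both in CES2 libraries. The log2 fold change was 0.12 (95% interval -0.63 to 0.86), which was -0.20 without CES2 2 and 0.38 without CES2 3. The transcript listed for ETFDH has 446 bases in 2 exons, is incomplete in GENCODE release 29, and shares 131 exon bases with C4orf46 on the other strand. The subunits of the electron transfer flavoprotein that feed it were more abundant, with ETFA at 165 ± 36.6 TPM in CES2 and 161 ± 31.0 TPM in Vector and ETFB at 181 ± 24.6 TPM in CES2 and 164 ± 17.1 TPM in Vector (SD, n = 3 each). CPT2 and ACADVL also share exon bases with genes on the other strand: 919 with the antisense RNA AL606760.2 and 99 with C1orf123 for CPT2, and 49 with DLG4 for ACADVL. The libraries were strand-specific, but whether counting used strand is not given in the sources used here.

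**Figure D3:**
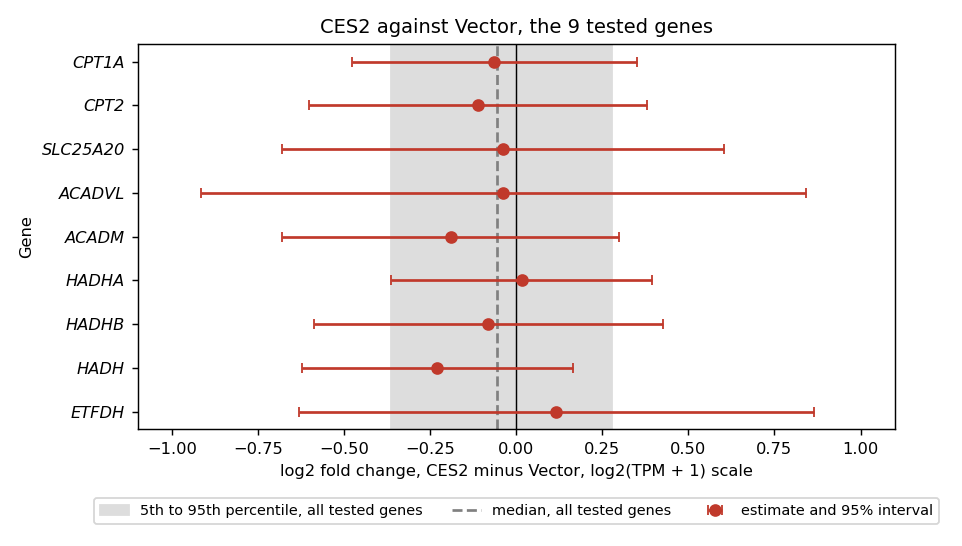
Log2 fold change of CES2 against Vector with its 95% interval for the 9 tested genes, with the 5th to 95th percentile of all 12210 genes shaded and their median dashed. All intervals include 0, and all lie between -0.92 and 0.86.

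Taking the 9 tested genes side by side, 7 had a log2 fold change below 0 and 2 above it, with a median of -0.064. Over all genes tested 63.7% were below 0 and the median was -0.057, close to the members' value. After median rescaling 5 of the 9 were below 0 against 49.1% of all genes, and after quantile normalization 6 of 9 against 52.8%. The intervals give what these libraries could have missed: for all 9 genes they stayed inside -1 to 1 on the log2 scale, and for 7 of 9 inside -0.7 to 0.7. The exceptions were ACADVL and ETFDH. A p that misses the threshold does not show that the levels were the same.

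The deposited levels of the members spanned a wide range. By mean TPM over the 6 libraries it ran ACADVL (233), HADHA (179), HADHB (172), HADH (88.2), CPT1A (69.0), ACADM (57.7), CPT2 (45.9), ETFDH (21.6), SLC25A20 (8.59) and ACAA2 (0.596). The ranges over the 6 libraries overlapped between neighbours among the top 3 genes and from HADH through CPT2. They did not overlap between HADHB and HADH, between CPT2 and ETFDH, between ETFDH and SLC25A20 or between SLC25A20 and ACAA2. The places of CPT1A, HADHB and ETFDH carry the doubt about listed length given above. The summed TPM of the 10 genes was 869, 1003 and 710 in CES2 libraries and 1013, 842 and 819 in Vector libraries. The means were 861 ± 147 in CES2 and 892 ± 106 in Vector (SD, n = 3 each). ACADVL made up 17.8% to 34.0% of the sum in each library.

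The libraries of a group differed among themselves, and several members shared the pattern. CES2 3 held the lowest value for 6 of the 10 genes: SLC25A20, ACADVL, HADHB, HADH, ETFDH and ACAA2. Of the 9 tested genes 5 were lowest there, against 25.2% of all genes tested. CES2 2 held the highest value for 4 of the 10, namely SLC25A20, ACADVL, ETFDH and ACAA2, and for 3 of the 9 tested, against 14.3% of all genes. In Vector 1, 7 of the 9 tested genes were above their own mean, as were 54.3% of all genes, and in Vector 3 6 of 9, as were 72.2% of all genes. The libraries of one group thus lay on both sides: the median deviation of the 9 genes was -0.0073, 0.044 and -0.26 in CES2 and 0.15, -0.097 and 0.10 in Vector on the log2 scale. CPT1A and HADHA were slightly above their own means in CES2 3 (0.047 and 0.067) and CPT2 was close to its mean there, while ACADVL and ETFDH ranged over more than 1 log2 unit.

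**Figure D4:**
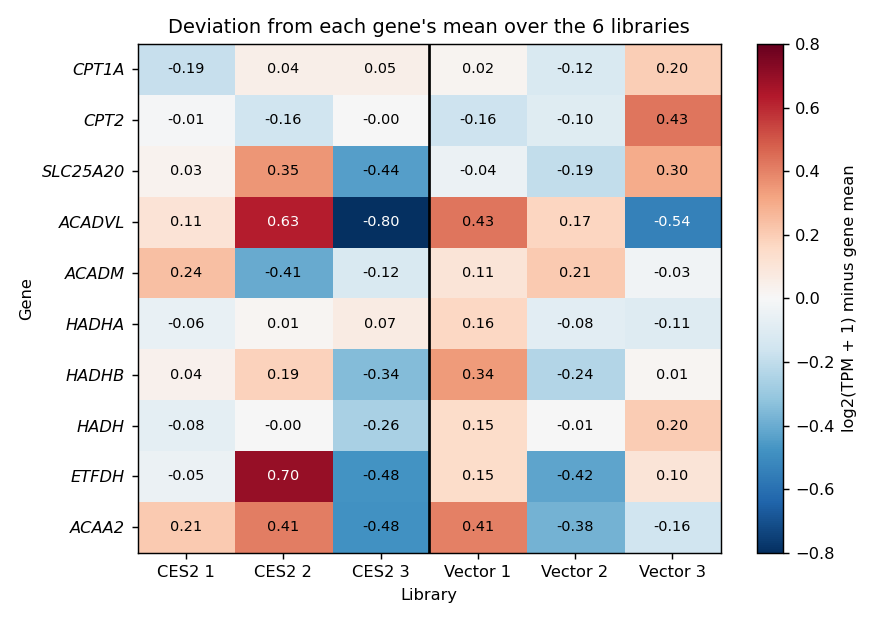
Deviation of log2(TPM + 1) from each gene's mean over the 6 libraries, with genes in rows and CES2 libraries left of Vector libraries. Within CES2, library 2 is mostly at or above the mean and library 3 mostly below it (ACADVL at 0.63 and -0.80), and in Vector, library 1 is mostly above the mean.

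Among genes of the steps around the spiral none was called either. They were grouped in 8 lists with 93 genes, of which 81 were tested. None passed the adjusted threshold by limma, against 0.00819% of all genes tested, and 0 had an unadjusted p under 0.05, against 1.09%. Of the 81, 53 were below and 28 above 0, with a median log2 fold change of -0.078. Over all genes tested, the background for each list below, 63.7% were below 0 and the median was -0.057. A single gene had groups that did not overlap, against 3.7% of all genes: AMACR, a racemase that prepares branched-chain acyl-CoA for peroxisomal oxidation, named after its values were seen. It was at 9.0, 8.41 and 5.35 TPM in CES2 and at 10.2, 9.84 and 12.2 TPM in Vector, with a log2 fold change of -0.48 (95% interval -1.06 to 0.11, limma, adjusted p = 0.9998).

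Upstream of the shuttle, 12 genes of acyl-CoA activation and carnitine supply were tested and had a median log2 fold change of -0.10, with 3 above and 9 below 0. The most abundant were DBI, an acyl-CoA binding protein, at 430 ± 125 TPM in CES2 and 451 ± 72.0 TPM in Vector, and the acyl-CoA synthetases ACSL3 and ACSL4 (SD, n = 3 each, here and for the lists that follow). ACSL3 averaged 118 ± 36.6 TPM in CES2 and 111 ± 21.9 TPM in Vector, and ACSL4 averaged 52.3 ± 18.2 TPM in CES2 and 60.5 ± 22.6 TPM in Vector. Of the genes that set malonyl-CoA and AMPK activity, 10 were tested (median -0.041, 3 above and 7 below 0). ACACA, which makes malonyl-CoA, averaged 113 ± 40.6 TPM in CES2 and 114 ± 32.0 TPM in Vector. STK11, the upstream kinase of AMPK, averaged 89.1 ± 6.36 TPM in CES2 and 79.1 ± 7.37 TPM in Vector. PRKAG1, a regulatory subunit of AMPK, averaged 84.2 ± 27.9 TPM in CES2 and 68.4 ± 15.6 TPM in Vector.

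Within the matrix, the list of other beta-oxidation enzymes had 12 tested genes and a median of -0.093, with 3 above and 9 below 0. ECHS1, the short-chain enoyl-CoA hydratase, averaged 281 ± 31.0 TPM in CES2 and 274 ± 43.6 TPM in Vector. HSD17B10, a hydroxyacyl-CoA dehydrogenase, averaged 219 ± 27.0 TPM in CES2 and 186 ± 54.6 TPM in Vector, a log2 fold change of 0.26 (95% interval -0.28 to 0.80), which was 0.082 without Vector 1 and 0.49 without Vector 2. ECI1, an enoyl-CoA isomerase, averaged 204 ± 47.5 TPM in CES2 and 188 ± 8.75 TPM in Vector. The electron transfer flavoprotein and its other donors had 8 tested genes and a median of -0.064, and IVD, the isovaleryl-CoA dehydrogenase of leucine breakdown, averaged 102 ± 2.12 TPM in CES2 and 110 ± 13.5 TPM in Vector. Markers of mitochondrial content, such as ATP5F1B, SLC25A5 and HSPD1, had 12 tested genes, a median of 0.024 and log2 fold changes of -0.0023, 0.018 and 0.13 for these 3 genes, of which the first turned positive under median rescaling (0.061) and the second negative under quantile normalization (-0.016).

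Outside mitochondria, the peroxisomal list had 15 tested genes and a median of -0.092, with 3 above and 12 below 0. Its most abundant members were HSD17B4, the peroxisomal bifunctional enzyme, at 100.2 ± 20.5 TPM in CES2 and 103 ± 20.4 TPM in Vector, ACAA1, given above, and SCP2, a sterol carrier protein with thiolase activity, at 62.6 ± 18.9 TPM in CES2 and 62.0 ± 7.18 TPM in Vector. The list of ketone body enzymes had 4 tested genes and a median of -0.10. BDH1 and OXCT1 averaged 62.0 and 46.7 TPM in CES2 and 60.6 and 51.6 TPM in Vector.

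Regulators of the pathway were tested as PPAR factors, coactivators and targets (8 tested, median 0.043, 5 above and 3 below 0). RXRA, the partner of the PPAR receptors, averaged 142 ± 21.6 TPM in CES2 and 140.0 ± 13.9 TPM in Vector. ESRRA, an orphan receptor that drives mitochondrial genes, was at 108, 210 and 70.1 TPM in CES2 and at 157, 111 and 58.1 TPM in Vector. Like ACADVL, it was highest within its group in CES2 2 and in Vector 1. ANGPTL4, a PPAR and hypoxia target, was at 146, 116 and 2.67 TPM in CES2 and at 56.9, 16.4 and 18.2 TPM in Vector. CES2 3 was thus the lowest of the 6 libraries while CES2 1 and CES2 2 were the highest, and the log2 fold change of 0.57 had a 95% interval of -2.34 to 3.47. It was 2.29 without CES2 3 and -0.37 without CES2 1. PPARA, named after its values were seen, averaged 11.4 ± 4.04 TPM in CES2 and 9.90 ± 1.97 TPM in Vector (SD, n = 3 each).

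**Figure D5:**
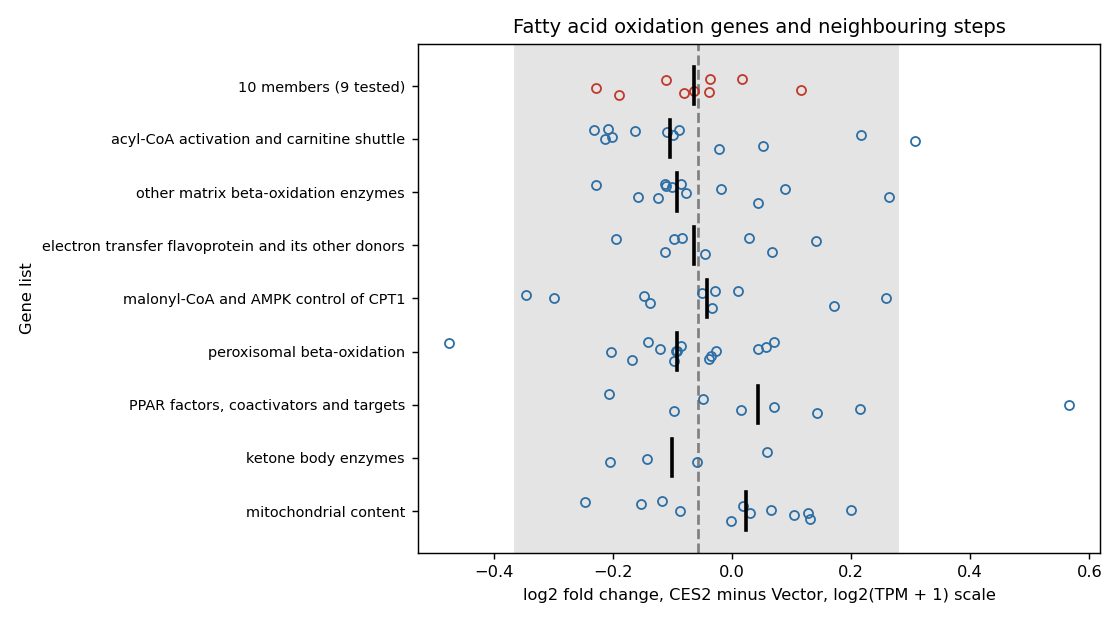
Log2 fold changes of CES2 against Vector for the 9 tested members in red and for the tested genes of the 8 neighbouring lists in blue, one point per gene, with black bars at the list medians. The medians lie between -0.10 and 0.043, and the dashed median of all genes is at -0.057. Only the medians of the PPAR list (0.043) and of mitochondrial content (0.024) are above 0. Most points fall within the shaded 5th to 95th percentile of all genes.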

How the data were processed

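The values are TPM deposited by the authors as one table of the whole series; no unit stands in its header, and the unit was read from the column sums of 999804 to 999893. Per the submitters' processing notes, HISAT2 2.1.0, StringTie 1.3.3, edgeR 3.0.8 and the builds hg38 and GRCh38 were used, with no role stated. For filters, annotation and strand handling the sources used here give nothing. Blank cells were read as 0 (none in the 10 genes), and 20 symbols turned into dates were restored from gene identifiers.

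Group membership followed the sample titles. A gene was tested if 3 or more libraries had 1 TPM or more, by limma 3.58.1 in R 4.3.3 (intensity trend, group as the only term) on log2(TPM + 1), a scale that understates the change of low genes, with Benjamini-Hochberg adjustment over all 12210 genes and a threshold of 0.05. Ratios were compared by exact permutation with scipy 1.17.1 in Python 3.11.15. Promoter windows are those of RefSeq (GRCh38.p14), and exon overlaps those of GENCODE release 29, in which all 10 listed transcripts had the same coordinates.

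The members and lists were chosen with earlier results of these data known. Named genes were the 10 members, CES2 and the 3 genes of highest mean TPM in each of the 8 pathway lists; others are marked, and 1 gene that the rule names is not reported here. Of 93 list genes, 83 matched an entry by symbol and the others were not analysed here. Alternatives covered each library left out, a block for the replicate number, quantile normalization, median rescaling, a pseudocount of 0.1, no filter and a filter of 1 TPM in all 6 libraries, limma without the trend, and library weights.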

Additional observations from a re-analysis of the deposited data

How the results depend on the processing

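No tested member passed the threshold under any of the 14 alternatives run on single genes, where their lowest adjusted p was 0.945, and 0 had an unadjusted p under 0.05 in any; the number called thus stayed at 0. CES2 passed in each of these. The number of genes called over the whole table was 1, but 4 with library weights, and 1 to 2 when a library was left out (2 without CES2 3). Since no member was called, a sign is not a direction: among 133 values of the 10 members under the alternatives 23 had the other sign, in 9 genes, and among 364 of 26 list genes 52 had it, in 18 genes. The cause was not tested. PPARA was not among the 26 list genes, so its sign under the alternatives is not given here.

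Where the sign turned with each library left out in turn, log2 fold changes of members ran from -0.14 to 0.018 for CPT1A, -0.22 to 0.075 for CPT2, -0.22 to 0.17 for SLC25A20, -0.36 to 0.35 for ACADVL, -0.032 to 0.10 for HADHA, -0.22 to 0.070 for HADHB, -0.20 to 0.38 for ETFDH and -0.090 to 0.35 for ACAA2. Among list genes they ran from -0.28 to 0.15 for DBI, -0.12 to 0.34 for ACSL3, -0.45 to 0.11 for ACSL4, -0.38 to 0.15 for CPT1B, -0.094 to 0.14 for ECHS1, -0.030 to 0.30 for ECI1, -0.14 to 0.22 for ETFA, -0.29 to 0.23 for ACACA, -0.13 to 0.14 for HSD17B4, -0.24 to 0.20 for SCP2, -0.087 to 0.13 for RXRA, -0.20 to 0.58 for ESRRA, -0.37 to 2.29 for ANGPTL4, -0.19 to 0.20 for BDH1, -0.11 to 0.15 for ATP5F1B, -0.041 to 0.10 for SLC25A5 and -0.10 to 0.41 for HSPD1. The difference in log2 ratio ran from -0.084 to 0.21 for HADHA to HADHB and from -0.059 to 0.16 for CPT1A to CPT2.

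After median rescaling the sign turned for SLC25A20 (0.019), ACADVL (0.026), ACACA (0.030), HSD17B4 (0.024), SCP2 (0.036) and ATP5F1B (0.061). After quantile normalization it turned for SLC25A20 (0.060), SCP2 (0.014) and SLC25A5 (-0.016). With library weights (6.86 for CES2 1) it turned for ACADVL (0.21), ACADM (0.096), HADHA (-0.016), DBI (0.051), ACSL4 (0.084), ACACA (0.28), HSD17B4 (0.12), SCP2 (0.32), ATP5F1B (0.068) and ACAT1 (0.011).

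Whether the replicate numbers pair the samples is not stated in the labels. Deviations from the group means correlated at 0.15, -0.52 and 0.37 for numbers 1, 2 and 3, and CES2 2 correlated best with Vector 1 (0.68). With 3 libraries per group, these correlations cannot show whether the samples were paired. With the replicate number as a block the whole table gave 1 gene called and 0 members. With 1 library of each group per number, the block leaves each difference of group means as it is by construction (5.66 for CES2, 0.098 and 0.049 for the ratios). It can change only the standard error and the p. The standard error of ACADVL was 0.22 with the block and 0.38 without it, and that of ETFDH 0.36 and 0.33. The unknown depth limits what can be said of ACAA2, which lies near 0.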
